A study of Mus musculus with 21 samples.

Results

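Zscan4c, Zscan4d, Zscan4f, Tcstv1, Tcstv3 and Tmem92 belong to the 2-cell-like programme of mouse embryonic stem cells. They were taken by symbol from a table of read counts, where they are 6 of 39396 gene rows and each symbol matched a single row. Genes of this programme are transcribed at the 2-cell stage, when the embryonic genome is first activated, and in cultured embryonic stem cells a small and changing share of the cells switches them on for a time. The transcription factor Dux, itself dependent on Dppa2 and Dppa4, activates many of them, while chromatin factors such as Trim28, the histone chaperone CAF-1 and a Polycomb complex with L3mbtl2 and Pcgf6 keep them silent. Zscan4 proteins carry a SCAN domain and zinc fingers and are known for lengthening telomeres by recombination in mouse embryonic stem cells. Tcstv1 and Tcstv3, named for their variable expression at the 2-cell stage, have also been tied to telomere length there, and Tmem92, a predicted membrane protein, serves as a marker of the same state.

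RNA sequencing covered 21 libraries, 3 for each of 7 groups. Ground-state embryonic stem cells of the lines D3 and A2 were kept in DMEM with 10% serum, 1000 U/mL of leukaemia inhibitory factor (LIF) and 2i, a pair of small-molecule inhibitors that block MEK and GSK3. Naive cells of each line were ground-state cells from which 2i had been removed for 4 days. Early primitive ectoderm-like (EPL) cells of each line were ground-state cells cultured for 4 days with serum, 400 uM L-proline and LIF lowered to 330 U/mL, in a medium listed without 2i. Epiblast stem cells (EpiSC) came from A2 alone: A2 cells were implanted into a pseudopregnant mouse, the cells were isolated after implantation, and they were maintained in KO DMEM with serum replacement, activin A and bFGF. The labels number the libraries of a group 1 to 3 without saying whether they came from separate cultures, so p-values measure only the spread between these libraries, which may be technical. EpiSC therefore differs from every other group in derivation and medium as well as in stage, which cannot be told apart.

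Total counts ranged from 15320599 to 23490527 per library, and 16575 genes passed the filter on low counts. All 6 rows passed, Tcstv1 only through its EpiSC libraries: 5 libraries reached the filter's level of 0.522 CPM (counts scaled to library size), 2 of them outside EpiSC. Markers of the labelled stages were checked. The summed level of Fgf5, Otx2, Pou3f1 and Dnmt3b, genes of the formative and primed epiblast, was 234 to 255 CPM in D3 ground, 159 to 176 CPM in A2 ground, 393 to 436 CPM in D3 naive, 292 to 338 CPM in A2 naive, 1480 to 1610 CPM in D3 EPL, 833 to 970 CPM in A2 EPL and 135 to 139 CPM in A2 EpiSC libraries. Of these, Fgf5 averaged 12.7 CPM in EpiSC against 4.51 CPM in A2 EPL libraries, whereas Dnmt3b averaged 90.4 CPM against 793 CPM. The EpiSC libraries also held markers of other cell types. The summed level of 6 fibroblast markers was 3120 to 4380 CPM there, against 211 to 282 CPM in A2 EPL, 182 to 191 CPM in A2 naive and 286 to 336 CPM in A2 ground libraries. Col3a1 and Postn, both among these 6 markers, averaged 281 and 30.2 CPM in EpiSC and had no count in A2 EPL libraries.

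The Zscan4 genes lie in a cluster on chromosome 7 (GRCm38, gene models of GENCODE release M21). Zscan4c spans chr7:11005745-11010547 on the plus strand, Zscan4d chr7:11161374-11166159 on the minus strand and Zscan4f chr7:11397915-11402318 on the plus strand. Zscan4b and Zscan4e, which were also counted, lie at chr7:10900740-10905050 and chr7:11306378-11310682 on the minus strand. The cluster holds 4 further gene models that have no row under their symbols in the table of counts. Tcstv1 spans chr13:119893388-119894785 on the minus strand and Tcstv3 chr13:120316878-120318178 on the plus strand. Tmem92 spans chr11:94777217-94782703 on the minus strand. All 6 are annotated as protein coding.

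A block of 87 bases upstream of the annotated starts is printed because it shows how alike the promoters of the Zscan4 genes are. The RefSeq promoter table (GRCm38.p6) matched 3 of the 6 genes, Zscan4c, Zscan4d and Zscan4f, and Zscan4b is printed beside them. Capitals mark TATAAAA and, further upstream, a stretch that all 4 share.
Zscan4c (chr7:11005625-11005711, plus strand): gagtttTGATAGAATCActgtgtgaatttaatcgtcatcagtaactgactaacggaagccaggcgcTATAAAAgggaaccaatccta
Zscan4d (chr7:11166193-11166279, minus strand): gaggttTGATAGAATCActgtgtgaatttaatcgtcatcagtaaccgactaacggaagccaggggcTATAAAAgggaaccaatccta
Zscan4f (chr7:11397818-11397904, plus strand): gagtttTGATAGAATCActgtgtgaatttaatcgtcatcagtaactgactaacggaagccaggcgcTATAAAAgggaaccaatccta
Zscan4b (chr7:10905061-10905147, minus strand): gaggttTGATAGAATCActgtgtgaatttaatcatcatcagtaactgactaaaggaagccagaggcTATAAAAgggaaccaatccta

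Counted from the 5′ end of the block, with the base of Zscan4c first, Zscan4d differed at T4G, T46C and C64G, Zscan4b at T4G, G34A, C53A, G63A and C64G, and Zscan4f at 0 of 87 bases. Over 250 bases before the start, the aligned part of Zscan4c was 99.6% identical to Zscan4f and 97.5% identical to Zscan4d. The letters TATAAAA, searched on both strands, were present in 4.98% of 32851 RefSeq promoters of 250 bases. They began 54, 65, 31 and 31 bases before the RefSeq start of Zscan4c, Zscan4d, Zscan4f and Zscan4b; for Zscan4d this start differs from that of the GENCODE model given above. A match of letters is a description and shows no binding.

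Reads of the Zscan4 rows cannot be told apart with certainty. Of all windows of 100 bases in the longest transcript, 89.5% of those of Zscan4f, 72.8% of those of Zscan4c and 29.6% of those of Zscan4d occurred identically in another gene's transcript, the closest in each case being another Zscan4 model. The share was 7.79% for Tcstv3, 4.06% for Tcstv1 and 0% for Tmem92 (0 of 1944 windows). For windows of 50 bases the shares were 95.3% for Zscan4f, 85.5% for Zscan4c, 49.6% for Zscan4d, 31.4% for Tcstv3, 16.8% for Tcstv1 and 2.01% for Tmem92. The read length and the setting for reads with several matches are unstated in the labels and processing notes, and the library kit does not mark strand. Rows of Zscan4c and Zscan4f are therefore uncertain one by one. The sum of the 5 Zscan4 rows is given beside them as the Zscan4 total, with Tcstv1 and Tcstv3 summed as the Tcstv total. At 100 bases, 83.2% of the windows of Zscan4f, 66.8% of Zscan4c and 25.8% of Zscan4d also occurred in genes without a row in the table. The Zscan4 total may thus itself gain or lose reads shared with copies that were not counted.

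**Figure D1:**
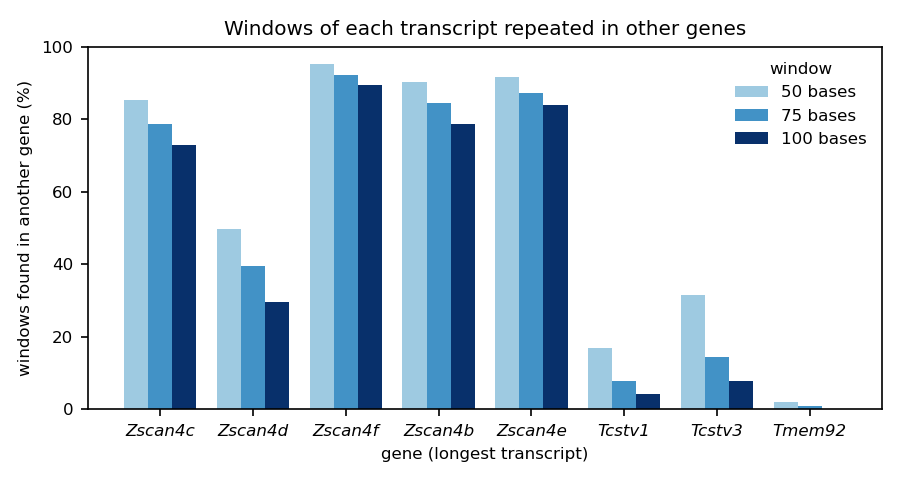
Share of windows of 50, 75 and 100 bases (%) in the longest transcript of each gene that occur identically in a transcript of another gene. At 100 bases the bars are high for Zscan4f (89.5%) and Zscan4c (72.8%), lower for Zscan4d (29.6%), and at 0% for Tmem92.

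Levels are CPM scaled with TMM factors. Zscan4c had the following values in libraries 1, 2 and 3 of each group: 0.962, 0.604 and 0.602 CPM in D3 ground, 0.426, 0.939 and 0.38 CPM in A2 ground, 4.69, 5.32 and 5.93 CPM in D3 naive, 3.52, 3.28 and 2.97 CPM in A2 naive, 3.37, 3.29 and 3.42 CPM in D3 EPL, 0.886, 2.51 and 2.96 CPM in A2 EPL, and 15.1, 18.6 and 20.0 CPM in A2 EpiSC. The group means, from high to low, ran A2 EpiSC, D3 naive, D3 EPL, A2 naive, A2 EPL, D3 ground and A2 ground. The libraries of D3 EPL overlapped those of A2 naive, those of A2 EPL overlapped those of D3 ground, and those of D3 ground overlapped those of A2 ground, while the other neighbours in this order did not overlap. The raw counts behind the ground-state values were 7 to 19 per library, and those behind the EpiSC values 328 to 480.

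Zscan4d, the row with the largest part of its sequence to itself among the 3 Zscan4 rows, had 1.37, 1.16 and 0.657 CPM in D3 ground, 0.946, 2.16 and 1.09 CPM in A2 ground, 7.72, 7.04 and 10.1 CPM in D3 naive, 6.40, 4.12 and 5.31 CPM in A2 naive, 4.99, 4.15 and 3.21 CPM in D3 EPL, 1.83, 3.24 and 3.8 CPM in A2 EPL, and 31.4, 37.6 and 38.6 CPM in A2 EpiSC. From high to low the group means ran A2 EpiSC, D3 naive, A2 naive, D3 EPL, A2 EPL, A2 ground and D3 ground. EpiSC stood clear of D3 naive and D3 naive clear of A2 naive, and all later neighbours overlapped.

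Zscan4f had 0.405, 0.279 and 0.547 CPM in D3 ground, 0.236, 0.387 and 0.163 CPM in A2 ground, 2.17, 1.5 and 2.49 CPM in D3 naive, 1.27, 0.735 and 2.14 CPM in A2 naive, 1.56, 1.78 and 1.41 CPM in D3 EPL, 0.413, 0.838 and 2.11 CPM in A2 EPL, and 10.7, 15.1 and 9.38 CPM in A2 EpiSC. Its order was A2 EpiSC, D3 naive, D3 EPL, A2 naive, A2 EPL, D3 ground and A2 ground, and every pair of neighbours after EpiSC overlapped. The summed Zscan4 total averaged 2.66 ± 0.83 CPM in D3 ground, 2.79 ± 1.1 CPM in A2 ground, 19.6 ± 3.6 CPM in D3 naive, 12.5 ± 2.1 CPM in A2 naive, 12.3 ± 1.5 CPM in D3 EPL, 8.49 ± 3.9 CPM in A2 EPL and 80.5 ± 9.5 CPM in A2 EpiSC libraries (SD, n = 3 each). Zscan4d held 33.2% to 49.3% of this total in the 7 group means, Zscan4c 20.2% to 27.6% and Zscan4f 9.33% to 16.7%, so the order of the 3 rows was the same in each group.

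Tcstv1 was at the edge of detection outside EpiSC. Its counts in libraries 1, 2 and 3 were 2, 2 and 3 in D3 ground, 0, 1 and 0 in A2 ground, 3, 4 and 13 in D3 naive, 1, 1 and 1 in A2 naive, 14, 9 and 10 in D3 EPL, 3, 0 and 6 in A2 EPL, and 18, 31 and 35 in A2 EpiSC. A count of 0, read as at most 3 counts, allowed up to 0.142 CPM in A2 ground library 1, 0.163 CPM in A2 ground library 3 and 0.167 CPM in A2 EPL library 2; these limits and the intervals below cover counting error only. Group means were 1.17 ± 0.32 CPM in A2 EpiSC, 0.607 ± 0.26 CPM in D3 EPL, 0.371 ± 0.30 CPM in D3 naive, 0.180 ± 0.18 CPM in A2 EPL, 0.119 ± 0.039 CPM in D3 ground, 0.0518 ± 0.0051 CPM in A2 naive and 0.0184 ± 0.032 CPM in A2 ground libraries (SD, n = 3 each). Only D3 ground and A2 naive did not overlap among neighbours in this order.

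Tcstv3 had 0.355, 0.279 and 0.164 CPM in D3 ground, 0.236, 0.276 and 0.217 CPM in A2 ground, 0.743, 0.887 and 1.55 CPM in D3 naive, 1.33, 0.637 and 0.731 CPM in A2 naive, 1.30, 1.35 and 1.20 CPM in D3 EPL, 0.472, 1.06 and 0.966 CPM in A2 EPL, and 2.34, 3.40 and 2.79 CPM in A2 EpiSC. Its order was A2 EpiSC, D3 EPL, D3 naive, A2 naive, A2 EPL, D3 ground and A2 ground. The 4 naive and EPL groups overlapped along this order, EpiSC lay above them all and both ground groups lay below them all.

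Tmem92 had 0.304, 0.511 and 0.712 CPM in D3 ground, 0.331, 0.718 and 0.326 CPM in A2 ground, 1.37, 1.27 and 2.05 CPM in D3 naive, 1.79, 0.980 and 1.22 CPM in A2 naive, 1.04, 1.02 and 1.11 CPM in D3 EPL, 0.413, 0.838 and 0.905 CPM in A2 EPL, and 11.4, 15.2 and 17.2 CPM in A2 EpiSC. Its order was A2 EpiSC, D3 naive, A2 naive, D3 EPL, A2 EPL, D3 ground and A2 ground. EpiSC did not overlap D3 naive, and D3 EPL did not overlap A2 EPL. The 7 groups differed for Zscan4c, Zscan4d, Zscan4f, Tcstv3 and Tmem92 (edgeR quasi-likelihood F test, adjusted p between 1.34e-14 and 1.96e-08), as they did for 93.6% of all genes tested. Tcstv1 was also called, but it was tested only because its EpiSC libraries are high.

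**Figure D2:**
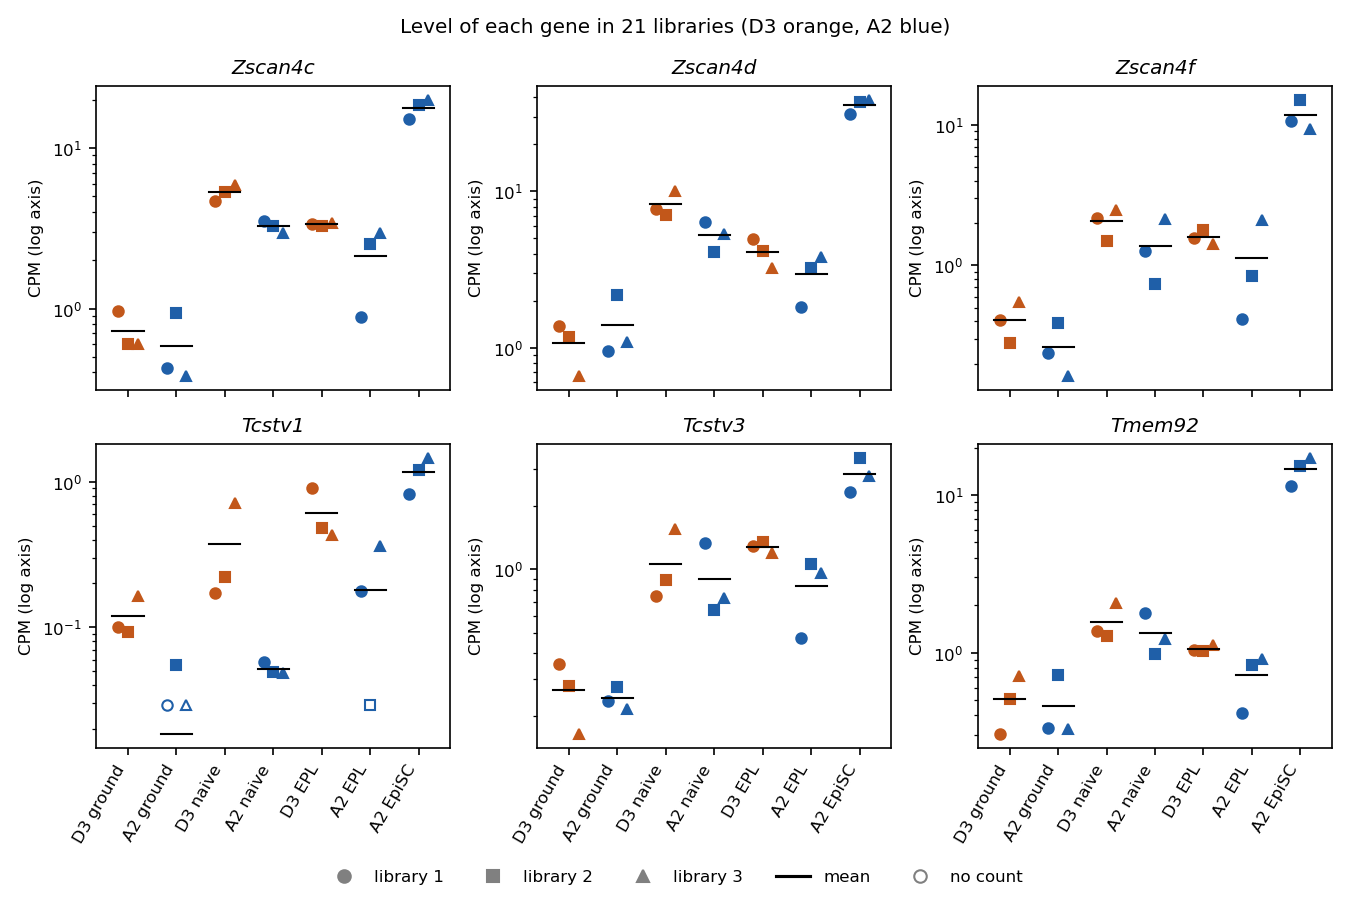
Level of each gene (CPM, log axis) in the 21 libraries, D3 in orange and A2 in blue, with the bar at the group mean and open symbols at a fixed height for libraries with no count. The A2 EpiSC libraries lie above all others for 5 genes and overlap D3 EPL for Tcstv1. The ground-state libraries lie lowest for Zscan4c, Zscan4d and Zscan4f apart from overlaps with A2 EPL library 1.

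Per kilobase of exon, a scale that allows for gene length, Zscan4d had the highest mean of the 6 in each of the 7 groups. This scale uses the full exon length and makes no correction for sequence shared between genes. At windows of 100 bases 29.6% of Zscan4d was shared, against 72.8% of Zscan4c and 89.5% of Zscan4f. The treatment of shared reads is unstated, so the order of the Zscan4 rows among the 6 genes is uncertain. The lead of Zscan4d over Tcstv3 and over Zscan4c was smaller than its own SD in EPL libraries. In D3 EPL Zscan4d had 1.81 ± 0.39, Tcstv3 1.64 ± 0.096 and Zscan4c 1.48 ± 0.031 CPM per kilobase (SD, n = 3 each). In A2 EPL Zscan4d had 1.30 ± 0.45, Tcstv3 1.07 ± 0.41 and Zscan4c 0.931 ± 0.48 CPM per kilobase (SD, n = 3 each). The same held in D3 ground libraries, at 0.467 ± 0.16 for Zscan4d, 0.341 ± 0.12 for Tcstv3 and 0.318 ± 0.091 CPM per kilobase for Zscan4c (SD, n = 3 each). In EpiSC libraries Zscan4d reached 15.8 ± 1.7 CPM per kilobase, followed by Zscan4c at 7.86 ± 1.1, Tmem92 at 6.69 ± 1.3, Zscan4f at 5.99 ± 1.5, Tcstv3 at 3.65 ± 0.68 and Tcstv1 at 0.834 ± 0.23 CPM per kilobase (SD, n = 3 each). In D3 naive libraries Zscan4d was at 3.65 ± 0.72, Zscan4c at 2.33 ± 0.27, Tcstv3 at 1.36 ± 0.55, Zscan4f at 1.05 ± 0.26, Tmem92 at 0.716 ± 0.19 and Tcstv1 at 0.265 ± 0.22 CPM per kilobase (SD, n = 3 each). Tmem92 and Zscan4f lay within each other's spread in EpiSC libraries.

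Naive cells, 4 days after removal of 2i, held more RNA of 5 of the 6 genes than ground-state cells, averaged over both lines. Zscan4c rose by 2.68 ± 0.23 on the log2 scale, a 6.4-fold difference (SE; edgeR quasi-likelihood test, adjusted p = 6.56e-10). Zscan4d rose by 2.44 ± 0.21 (adjusted p = 6.38e-10) and Zscan4f by 2.36 ± 0.37 (adjusted p = 6.76e-06). Tcstv3 rose by 1.90 ± 0.30 (adjusted p = 8.45e-06) and Tmem92 by 1.57 ± 0.26 (adjusted p = 1.46e-05). Tcstv1 did not pass, with a difference of 1.45 ± 0.88 (adjusted p = 0.155). In this comparison 31.7% of all genes tested were called higher and 31.8% lower, and the median of all genes was 0.01, so a call by itself is common here and the sizes of the 5 changes are what stands beside it. The naive libraries of each line lay above all ground libraries of that line for Zscan4c, Zscan4d, Zscan4f, Tcstv3 and Tmem92; 28.5% of all genes did so in D3 and 29.3% in A2.

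Within each line the same 5 genes were called. Zscan4c was higher in naive cells by 2.87 ± 0.30 in D3 and 2.49 ± 0.34 in A2, Zscan4d by 2.94 ± 0.29 in D3 and 1.93 ± 0.29 in A2, and Tmem92 by 1.62 ± 0.36 in D3 and 1.52 ± 0.37 in A2 (log2 ± SE). A call in this direction was made for 26.3% of all genes in D3 and 25.1% in A2. The difference between the lines' changes was called for 0 of the 6 genes, against 3.06% of all genes. It was 1.02 ± 0.44 for Zscan4d, with an unadjusted p of 0.0301 and an adjusted p of 0.265 (edgeR quasi-likelihood test of the interaction), the only one of the 6 with an unadjusted p below 0.05; DESeq2 also called 0, and without the filter on low counts the Zscan4d interaction was called (adjusted p = 0.0259). In bulk libraries, more cells in the 2-cell-like state and more RNA in each such cell cannot be told apart. Markers of primitive endoderm moved in the same direction: 6 of 6 rose in naive cells, where 31.7% of all genes were called higher. Their summed levels were 86.2 to 102 CPM in D3 naive against 18.9 to 22.0 CPM in D3 ground, and 99.9 to 123 CPM in A2 naive against 37.1 to 40.0 CPM in A2 ground libraries. Also higher were 4 of 4 markers of the formative and primed epiblast and 3 of 4 germline genes, while 4 of 5 markers of naive pluripotency were lower. What part any of these had in the result was not tested.

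EPL cells also held more RNA of these genes than ground-state cells, and all 6 passed the test. Tcstv1 was tested only through its EpiSC libraries, so its call is no support for this count. The differences, averaged over both lines, were 2.04 ± 0.24 for Zscan4c (adjusted p = 1.25e-07), 1.51 ± 0.22 for Zscan4d (adjusted p = 3.52e-06), 2.01 ± 0.38 for Zscan4f (adjusted p = 8.03e-05), 2.59 ± 0.69 for Tcstv1 (adjusted p = 0.00218), 1.99 ± 0.30 for Tcstv3 (adjusted p = 3.84e-06) and 0.86 ± 0.29 for Tmem92 (adjusted p = 0.0109; log2 ± SE, edgeR quasi-likelihood test). Of all genes, 33.1% were called higher and 33.2% lower. In D3 the EPL libraries lay above the ground libraries for all 6 genes. In A2, library 1 of EPL was low for Zscan4c, Zscan4d and Zscan4f: Zscan4c overlapped between the groups there, with 0.886 CPM in that EPL library and 0.939 CPM in ground library 2, and so did Zscan4d, Tcstv1 and Tmem92. Non-overlap in this direction was found for 33.2% of all genes in D3 and 31.2% in A2. Within A2, Tmem92 did not pass, at 0.66 ± 0.43 (adjusted p = 0.2). Tcstv1 in A2 rests on 9 counts in EPL against 1 in ground libraries, a ratio of 10.1 with a 95% Poisson interval of 1.40 to 442. Its call in A2, at 2.94 ± 1.22 (adjusted p = 0.0468, edgeR quasi-likelihood test), was lost when any of 12 libraries was left out, with log2 differences of 1.98 to 4.83 over all such fits, and under the replicate block (adjusted p = 0.059). Zscan4f in A2, at 2.07 ± 0.59, lost its call without A2 EPL library 3, at 1.28 (adjusted p = 0.0864). The lines' changes differed for 0 of the 6 genes, none with an unadjusted p below 0.05, against 13.3% of all genes, and DESeq2 also called 0. Primitive endoderm markers again rose, 6 of 6, to summed levels of 128 to 176 CPM in D3 EPL and 106 to 149 CPM in A2 EPL libraries. So did 4 of 4 formative and primed markers and 3 of 4 germline genes, while 5 of 5 naive pluripotency markers fell. What part any of these had was not tested.

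Set against naive cells, EPL cells held less RNA of Zscan4c, Zscan4d and Tmem92. Zscan4c fell by 0.64 on the log2 scale (SE 0.18, adjusted p = 0.00564), Zscan4d fell by 0.93 (SE 0.18, adjusted p = 0.000145) and Tmem92 fell by 0.71 (SE 0.24, adjusted p = 0.0152; edgeR quasi-likelihood test). Zscan4f at -0.35 ± 0.29 (adjusted p = 0.326), Tcstv3 at 0.09 ± 0.24 (adjusted p = 0.777) and Tcstv1 at 1.15 ± 0.57 (adjusted p = 0.0997) did not pass. Calls were made for 24.1% of all genes in the lower and 27.1% in the higher direction, and 3 calls among 6 genes is near the sum of these shares. The Zscan4 total was lower by 0.62 in EPL (log2 change -0.62 ± 0.17, adjusted p = 0.00443), at 12.3 ± 1.5 CPM in D3 EPL against 19.6 ± 3.6 CPM in D3 naive and 8.49 ± 3.9 CPM in A2 EPL against 12.5 ± 2.1 CPM in A2 naive libraries (SD, n = 3 each). The Tcstv total, at 0.25 ± 0.24, did not pass (adjusted p = 0.407).

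In both lines the EPL libraries of Zscan4c, Zscan4d and Tmem92 lay below all naive libraries, by as little as 2.96 against 2.97 CPM for Zscan4c in A2. This was found for 22.6% of all genes in D3 and 22.3% in A2. Within D3 Zscan4c and Zscan4d were called, and within A2 Zscan4d alone, at -0.83 ± 0.26 (adjusted p = 0.0181); 20.4% of all genes were called lower in D3 and 16.1% in A2. The call of Zscan4d in A2 was lost without A2 naive library 1 (adjusted p = 0.0894) or A2 EPL library 1 (adjusted p = 0.117), and that of Zscan4c in D3 was lost without any 1 of 5 of the 6 D3 naive and EPL libraries (adjusted p up to 0.0939). The difference between lines was called for 0 of the 6 genes, none with an unadjusted p below 0.05 and none by DESeq2, against 12.7% of all genes. Tmem92 lost its call without A2 naive library 1 (adjusted p = 0.0515), A2 EPL library 1 (adjusted p = 0.0507) or D3 naive library 3 (adjusted p = 0.0516). Without A2 EPL library 3, Zscan4f was called lower at -0.76 (adjusted p = 0.0285). Tcstv1 was called higher without A2 EPL library 2, at 1.44 (adjusted p = 0.0244), or without D3 naive library 3, at 1.59 (adjusted p = 0.0232).

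**Figure D3:**
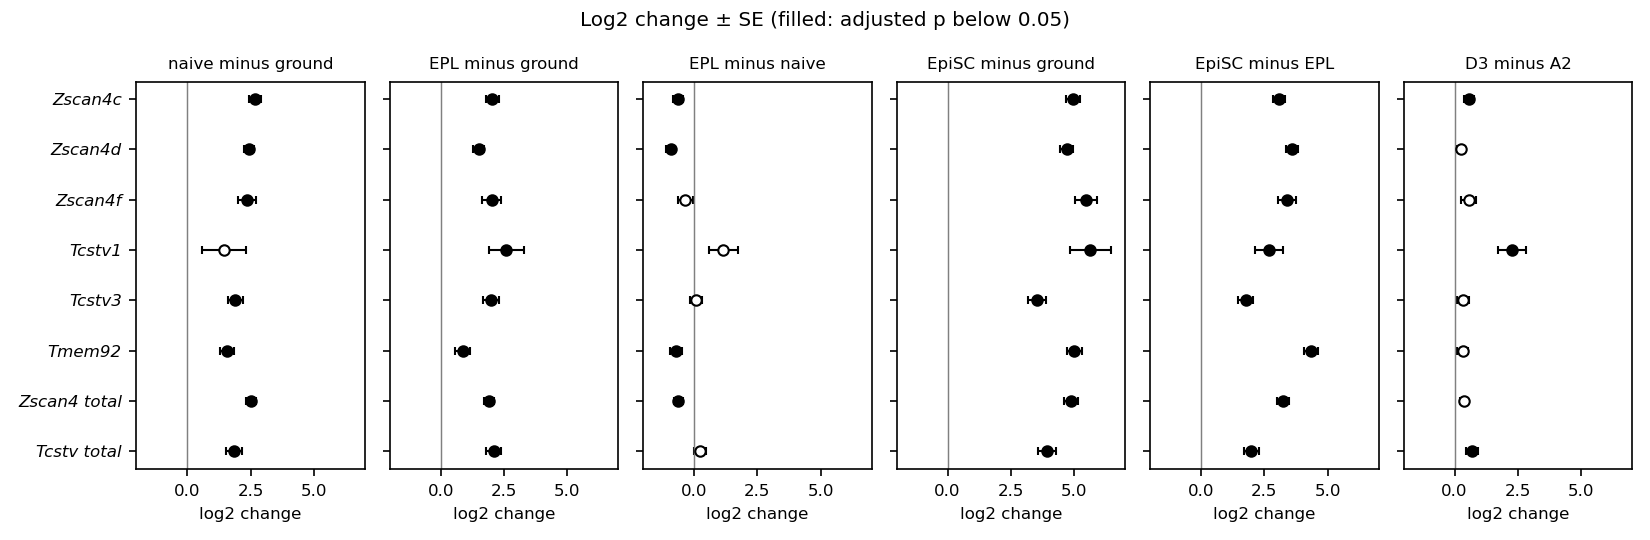
Log2 change with its standard error for each gene and for the summed Zscan4 and Tcstv rows in 6 comparisons, filled where the adjusted p was below 0.05. Naive minus ground is filled for all but Tcstv1, and EPL minus naive is filled and below 0 for Zscan4c, Zscan4d, Tmem92 and the Zscan4 total. The EpiSC changes against ground run from 3.52 for Tcstv3 to 5.63 for Tcstv1, which was tested only through its EpiSC libraries.

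The A2 EpiSC libraries held the highest levels. Against A2 ground, Zscan4f was higher by 5.46 ± 0.43 on the log2 scale (adjusted p = 1.56e-10), Tmem92 by 5.0 ± 0.29 (adjusted p = 7.96e-13), Zscan4c by 4.95 ± 0.29 (adjusted p = 8.79e-13), Zscan4d by 4.70 ± 0.26 (adjusted p = 3.14e-13) and Tcstv3 by 3.52 ± 0.36 (adjusted p = 1.24e-08; edgeR quasi-likelihood test). Tcstv1 had 84 counts in EpiSC against 1 in A2 ground libraries, a ratio of 67.9 with a 95% Poisson interval of 11.9 to 2710. All 6 genes were called higher against ground, naive and EPL cells of A2, which was so for 39.1% of all genes in each of these comparisons. Since Tcstv1 passed the filter only through these libraries, its call is no support for the count.

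Against A2 EPL the changes were 4.33 ± 0.27 for Tmem92, 3.6 ± 0.24 for Zscan4d, 3.39 ± 0.35 for Zscan4f, 3.07 ± 0.24 for Zscan4c and 1.77 ± 0.30 for Tcstv3. Against A2 naive the changes of the same genes lay between 1.69 ± 0.29 for Tcstv3 and 3.47 ± 0.25 for Tmem92 (log2 ± SE, edgeR quasi-likelihood test, adjusted p at most 2e-05 in both comparisons). Tcstv1, tested only through its EpiSC libraries, was higher by 2.70 ± 0.55 against EPL and by 4.35 ± 0.67 against naive. The latter rests on 84 counts against 3, a ratio of 22.9 with a 95% Poisson interval of 7.56 to 113. The comparisons with ground, naive and EPL share the EpiSC libraries. No EpiSC library overlapped an A2 library of another group for Zscan4c, Zscan4d, Zscan4f, Tcstv3 or Tmem92, which was so in the higher direction for 40.5% of all genes against ground, 40.5% against naive and 40.1% against EPL. Fibroblast markers moved with these changes: 6 of 6 rose in EpiSC in all 3 comparisons, to the summed levels given above. So did 6 of 6 primitive endoderm markers, with 463 to 649 CPM in EpiSC, against 106 to 149 CPM in A2 EPL, 99.9 to 123 CPM in A2 naive and 37.1 to 40.0 CPM in A2 ground libraries. The summed level of Pou5f1, Sox2, Nanog and Sall4 was 1000 to 1310 CPM in EpiSC, against 2160 to 2230 CPM in A2 EPL libraries. Whether other cells were present, and what part they had in the levels of the 6 genes, was not tested.

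D3 cells held more RNA of Zscan4c and Tcstv1 than A2 cells, averaged over ground, naive and EPL. Here too Tcstv1 was tested only through its EpiSC libraries. Zscan4c was higher in D3 by 0.57 ± 0.19 on the log2 scale (adjusted p = 0.02) and Tcstv1 by 2.26 ± 0.56 (adjusted p = 0.00243; edgeR quasi-likelihood test). The other 4 genes lay between 0.25 ± 0.17 for Zscan4d and 0.56 ± 0.30 for Zscan4f and did not pass, while 20% of all genes were called higher and 20.7% lower in D3. Tcstv1 counts summed to 20 in D3 naive against 3 in A2 naive libraries, a ratio of 7.25 with a 95% Poisson interval of 2.15 to 38.1. D3 naive library 3 held 13 of the 20, and the naive difference, 2.71 with all libraries, was 1.83 without it (adjusted p = 0.171) and 2.68 without A2 naive library 3 (adjusted p = 0.0613), neither of which passed. No D3 library overlapped an A2 library of the same stage for Tcstv1, which was so in the higher direction for 19.7% of all genes in ground, 19.3% in naive and 22.8% in EPL. The call of Zscan4c was lost without A2 ground library 1 (adjusted p = 0.0547), A2 ground library 3 (adjusted p = 0.0515) or D3 ground library 1 (adjusted p = 0.0759). Zscan4f was called higher in D3 without A2 EPL library 3, at 0.84 (adjusted p = 0.0184). The Zscan4 total, at 0.38 ± 0.16, did not pass (adjusted p = 0.0722), and it was called without A2 ground library 2, at 0.50 (adjusted p = 0.0225), or A2 EPL library 3, at 0.49 (adjusted p = 0.0183).

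Within groups several of the 6 genes were high or low in the same libraries. Over the 21 deviations of log2 CPM from the group means, Pearson's r was 0.80 between Zscan4c and Zscan4d, 0.76 between Zscan4d and Tcstv3, 0.67 between Zscan4c and Tcstv3, 0.60 between Zscan4c and Tmem92, 0.60 between Zscan4c and Zscan4f and 0.41 between Zscan4f and Tcstv3. Tcstv1, with its few counts, gave 0.18 to 0.38 with the other 5. Values of a library share its depth and scaling factor, the Zscan4 rows also share reads, and these r are a description. A2 EPL library 1 stood low, at -1.01 for Zscan4c, -0.99 for Zscan4f, -0.64 for Tcstv3, -0.61 for Tmem92 and -0.60 for Zscan4d. A2 ground library 2 stood high, at 0.70 for Zscan4c, 0.68 for Zscan4d and 0.62 for Tmem92, and D3 naive library 3 and A2 EPL library 3 were above their group means for all 6 genes. Without A2 EPL library 1, r was 0.76 between Zscan4c and Zscan4d, 0.71 between Zscan4d and Tcstv3, 0.49 between Zscan4c and Tmem92, 0.43 between Zscan4c and Zscan4f and 0.25 between Zscan4f and Tcstv3.

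**Figure D4:**
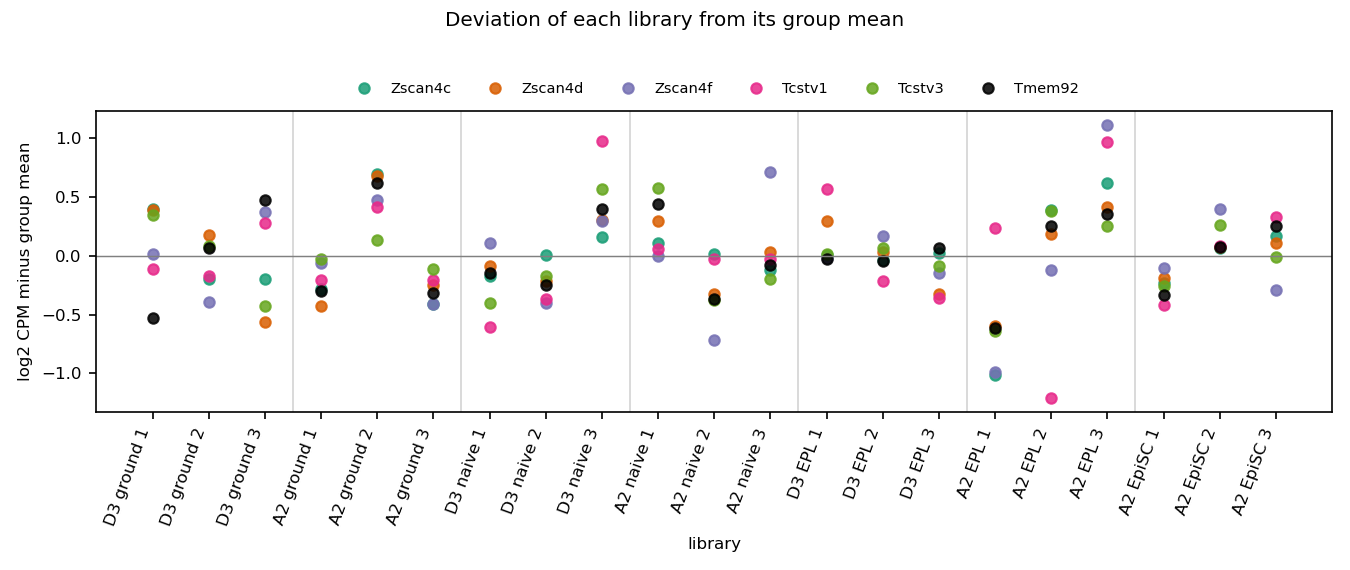
Deviation of log2 CPM from the group mean for the 6 genes in each of the 21 libraries, which are separated by group. In A2 EPL library 1 all genes but Tcstv1 lie between -1.01 and -0.60, and in A2 ground library 2 all 6 lie above 0.

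The genes whose level was most like the mean of the 6 over the 21 libraries were Usp17lb (r = 0.977), Pramel20 (0.972), Usp17lc (0.968), Gm11543 (0.965), Col4a1 (0.963), Zscan4b (0.963), Mmp14 (0.961) and Marveld1 (0.959). The EpiSC libraries form a cluster of their own, and over the 18 other libraries r was 0.902 to 0.949 for these 8. Usp17lb and Usp17lc code for deubiquitinases, Col4a1 for a chain of basement membrane collagen and Mmp14 for a membrane metalloproteinase. Col4a1 averaged 621 CPM in EpiSC libraries against 36.4 CPM in A2 EPL libraries. By the deviations from the group means, which leave out differences between groups, the most alike were Eif1ad7 (0.875), Eif4a3l1 (0.864), Gm24455 (0.862), Xkr6 (0.854), Usp17lb (0.848), Lix1 (0.844), Lmx1a (0.84) and Cep55 (0.837). Without the 2 libraries whose mean deviation was farthest from the median, r ran from 0.70 for Lmx1a to 0.803 for Gm24455. These genes are the highest of all genes tested, and whether such r stand out among so many was not tested. Eif1ad7, related to translation initiation factor 1A, averaged 9.67 CPM in D3 naive against 2.26 CPM in D3 ground and 8.40 CPM in A2 naive against 1.95 CPM in A2 ground libraries.

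Of 43 other genes listed for the 2-cell-like state, Tcstv1, Tcstv3 and Tmem92 included, 31 were in the table and 22 were tested. Among the 22, Tcstv1 and Duxf3 passed the filter only through their EpiSC libraries, so their calls are no support for the counts here and below. Other low rows were not checked for this. In naive against ground cells 16 rose, 1 fell and 5 did not pass, beside 31.7% of all genes called higher and 31.8% lower. The median log2 change was 1.32 against 0.01 over all genes. Rows of the Usp17l family and of the Gm4340, Gm20767 and Gm21761 genes have near-identical copies and are uncertain one by one. Such rows may share reads, as may Tcstv1 and Tcstv3, so the counts of genes here and below are not counts of independent changes. The genes named were those with the largest called changes and at least 1 CPM. AF067061 rose by 2.25 ± 0.28 (adjusted p = 2.48e-07), Gm21761 by 2.13 ± 0.20 (adjusted p = 4.09e-09), Gm20767 by 1.96 ± 0.29 (adjusted p = 4.02e-06), Gm4340 by 1.59 ± 0.25 (adjusted p = 1.04e-05) and Usp17le by 1.57 ± 0.23 (adjusted p = 3.55e-06; log2 ± SE, edgeR quasi-likelihood test). The homeobox gene Obox6 fell by 4.16 (SE 0.39, adjusted p = 3.64e-09), to 0.206 ± 0.035 CPM in D3 naive against 3.04 ± 0.50 CPM in D3 ground libraries. In EPL against ground cells 18 rose, 1 fell and 3 did not pass, beside 33.1% of all genes called higher and 33.2% lower. The median was 1.28 against 0 over all genes.

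Between EPL and naive cells 0 of the 22 were higher, 1 was lower and 21 did not pass, and the gene called was Tmem92. The median was 0.03, and 27.1% of all genes were called higher and 24.1% lower there. In EpiSC against A2 ground 20 rose, 1 fell and 1 did not pass, beside 39.1% of all genes called higher and 34.1% lower. All counts and medians with EpiSC include Tcstv1 and Duxf3, which were tested only because their EpiSC libraries are high. The median was 3.13 against 0.04 over all genes. AF067061 was higher there by 5.27 ± 0.33 (adjusted p = 2.73e-12), Ubtfl1 by 4.93 ± 0.46 (adjusted p = 2.40e-09) and Usp17le by 4.40 ± 0.27 (adjusted p = 2.09e-12; edgeR quasi-likelihood test). Usp17le averaged 23.3 ± 4.6 CPM in EpiSC against 2.73 ± 0.76 CPM in A2 EPL libraries (SD, n = 3 each). Of the 22, 18 were higher in EpiSC than in A2 naive and 19 higher than in A2 EPL cells, and 0 were lower in either. The share of all genes called higher was 39.1% in each of these comparisons. Between the lines 7 of the 22 were called, a share below that of all genes, of which 20% were higher and 20.7% lower in D3: 4 were higher in D3, AF067061 by 1.65 ± 0.23 (adjusted p = 3.93e-06), and 3 were lower, Gm20767 by 1.95 (log2 change -1.95 ± 0.22, adjusted p = 2.29e-07) and Gm21761 by 0.73 (log2 change -0.73 ± 0.16, adjusted p = 0.00082).

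**Figure D5:**
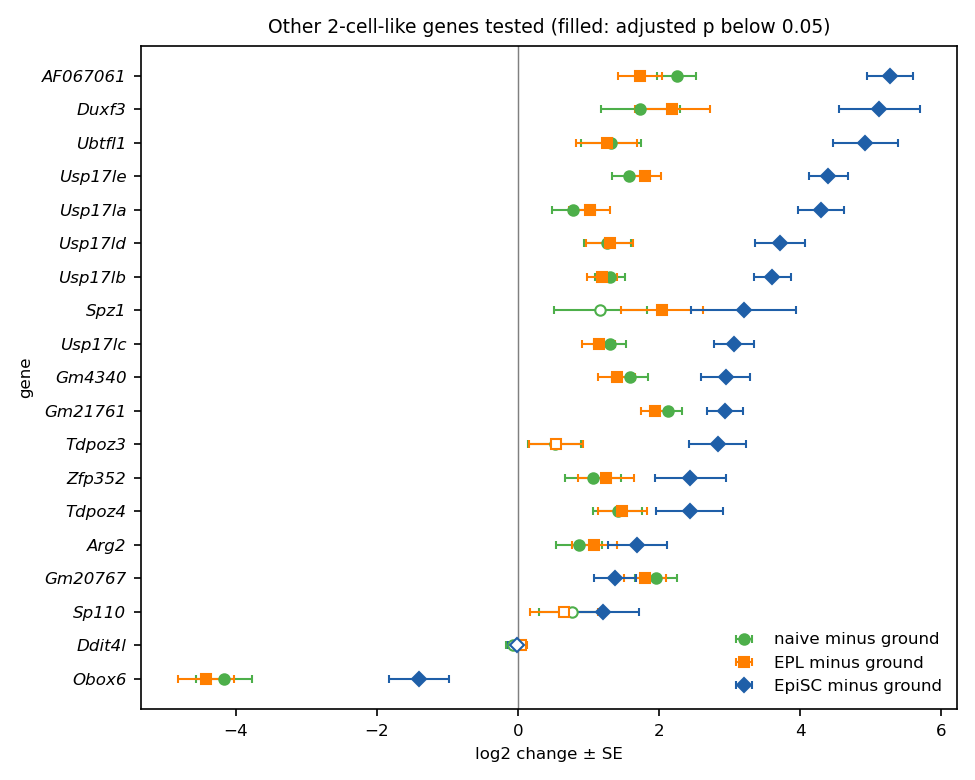
Log2 change with its standard error of the 19 other 2-cell-like genes tested, for naive, EPL and EpiSC cells each against ground, filled where the adjusted p was below 0.05. Naive changes other than those of Obox6 and Ddit4l run from 0.52 for Tdpoz3 to 2.25 for AF067061, EpiSC changes reach 5.27 for AF067061, and Obox6 lies below 0 in all 3.

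Duxf3, the row of the repeated Dux locus in the table, was at low levels outside EpiSC. It averaged 0.0983 ± 0.093 CPM in D3 ground, 0.0523 ± 0.0044 CPM in A2 ground, 0.297 ± 0.22 CPM in D3 naive, 0.218 ± 0.092 CPM in A2 naive, 0.413 ± 0.099 CPM in D3 EPL, 0.313 ± 0.16 CPM in A2 EPL and 2.02 ± 0.71 CPM in A2 EpiSC libraries (SD, n = 3 each). It rose by 1.74 ± 0.57 in naive (adjusted p = 0.0103) and by 2.19 ± 0.53 in EPL cells (adjusted p = 0.00102) against ground (log2 ± SE, edgeR quasi-likelihood test). Outside EpiSC its group means were all below the filter's level of 0.522 CPM. Like Tcstv1, it was tested only through its EpiSC libraries, so its calls are no support for the counts of activators below. It was singled out for these comparisons after its values were seen, since it was below 1 CPM. Among 8 listed activators tested, Duxf3 included, 4 rose and 4 fell in naive against ground cells. The shares of all genes were 31.7% called higher and 31.8% lower. Dppa4 rose by 1.45 ± 0.06 and Dppa2 by 1.29 ± 0.05, both partners upstream of Dux, and Nelfa, a subunit of the negative elongation factor, by 0.36 ± 0.04. Zscan5b fell by 1.80 (SE 0.21), Tbx3 fell by 1.16 (SE 0.05) and Dppa3 fell by 0.78 (SE 0.13). In EPL against ground the split was again 4 to 4, and Tbx3, a T-box factor of naive cells, fell by 3.84 (SE 0.06). In EpiSC against A2 EPL 3 rose and 4 fell, beside 39.1% of all genes called higher and 31.3% lower. Duxf3 was higher there by 2.68 ± 0.42 and Tbx3 by 2.00 ± 0.08. Dppa3 fell by 1.54 (SE 0.22), Dppa4 fell by 1.23 (SE 0.08) and Dppa2 fell by 0.81 (SE 0.08). In EpiSC against A2 ground 4 rose and 4 fell, beside 39.1% of all genes called higher and 34.1% lower. In that comparison Dppa4 was higher by 0.48 ± 0.08 and Dppa2 by 0.58 ± 0.08.

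All 29 listed repressors were tested. In naive against ground cells 7 rose, 10 fell and 12 did not pass, with a median of -0.03. The shares of all genes were 31.7% called higher and 31.8% lower. Lin28a, an RNA-binding protein that acts with Ncl on Dux, rose by 2.29 ± 0.06, whereas Uhrf1, a partner of the maintenance methyltransferase Dnmt1, fell by 0.77 (SE 0.06), the histone methyltransferase Setdb1 fell by 0.73 (SE 0.05) and Chaf1b, a CAF-1 subunit, fell by 0.53 (SE 0.07). In EPL against ground 11 rose, 8 fell and 10 did not pass, beside 33.1% of all genes called higher and 33.2% lower. In EpiSC against A2 EPL 4 rose, 23 fell and 2 did not pass, with a median of -0.53 against 0.07 over all genes; 39.1% of all genes were called higher and 31.3% lower in that comparison. There Lin28a fell by 2.22 (SE 0.08), L3mbtl2 fell by 1.38 (SE 0.06), Trim28 fell by 1.31 (SE 0.08), Ncl fell by 1.24 (SE 0.08) and Rif1, a replication-timing factor, fell by 1.24 (SE 0.14; log2, edgeR quasi-likelihood test). Trim28 averaged 1190 CPM in EpiSC against 2950 CPM in A2 EPL libraries. These falls came in the libraries with the fibroblast marker levels given above, and the part of any other cells was not tested.

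Of 26 listed genes of telomere maintenance 24 were tested. In naive against ground cells 5 rose, 12 fell and 7 did not pass, with a median of -0.13, beside 31.7% of all genes called higher and 31.8% lower. A pair of meiotic genes led the rises, Smc1b, a meiotic cohesin subunit, by 1.41 ± 0.13 and Dmc1, a meiotic recombinase, by 0.91 ± 0.14, and Terf2ip, a telomere-binding protein, fell by 0.82 (SE 0.06). In EPL against ground 5 rose and 11 fell, beside 33.1% of all genes called higher and 33.2% lower. Dmc1 rose there by 2.01 ± 0.13 and the telomerase subunit Tert fell, at -0.82 ± 0.10. In EpiSC against A2 ground 4 rose, 15 fell and 5 did not pass, with a median of -0.34, beside 39.1% of all genes called higher and 34.1% lower. Smc1b was higher by 2.86 ± 0.18 and Dmc1 by 1.80 ± 0.20, and the telomere-binding Terf1 fell by 1.97 (SE 0.06). Smc1b averaged 17.5 CPM in EpiSC against 2.39 CPM in A2 ground libraries.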

How the data were processed

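Reads were aligned with HISAT2 to GRCm38, handled with SAMtools and counted with featureCounts, per the submitters' processing notes; versions, annotation, read length and the treatment of reads with several matches are unstated in the labels and these notes. The deposited table holds raw counts per gene made by the authors for 21 libraries. Genes were kept by edgeR's filterByExpr (minimum count 10, minimum total 15), leaving 16575, and libraries were scaled by TMM. A quasi-likelihood model (edgeR 4.0.16 in R 4.3.3) with a mean for each of the 7 groups gave all comparisons, with Benjamini-Hochberg adjustment over all genes and calls at an adjusted p below 0.05. Comparisons of stages averaged D3 and A2, except for EpiSC, which was set against A2 alone. Per-library deviations used log2 CPM with a prior count of 2. The alternatives were DESeq2 1.42.0, other scalings and filters, fits of fewer groups, a replicate block and the leaving out of each library. The code was tested on simulated data. Within each list and comparison, up to 6 genes with the largest called changes and at least 1 CPM were eligible to be named. The members and lists were chosen with earlier results of these data known.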

Additional observations from a re-analysis of the deposited data

Results flagged for a closer look

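Among the 2-cell-like genes and activators listed, 9 changes between stages differed between the lines by a test of the difference itself. The test was the edgeR quasi-likelihood interaction, D3 change minus A2 change, log2. It covered the 22 2-cell-like genes and 8 activators above and the 5 Zscan4 rows. Of all genes, it called 3.06% for naive minus ground, 13.3% for EPL minus ground and 12.7% for EPL minus naive. Whether the 9 calls exceed these shares was not tested. None of the 9 was of Zscan4c, Zscan4d, Zscan4f, Tcstv1, Tcstv3 or Tmem92. Dppa3 differed by -1.92 for naive minus ground (adjusted p = 9.66e-05) and by -1.76 for EPL minus ground (adjusted p = 6.5e-05). Its level in D3 was 21.5 ± 4.6 CPM in ground, 6.46 ± 1.4 CPM in naive and 6.22 ± 0.85 CPM in EPL libraries, and in A2 it was 4.36 ± 0.55 CPM in ground, 4.95 ± 0.86 CPM in naive and 4.31 ± 0.54 CPM in EPL libraries (SD, n = 3 each). Ddit4l differed by 1.39 for EPL minus ground (adjusted p = 3.31e-05) and by 1.11 for EPL minus naive (adjusted p = 0.000524), with 27.8 ± 2.0 CPM in D3 EPL against 16.7 ± 2.9 CPM in D3 ground and 18.3 ± 0.25 CPM in A2 EPL against 28.9 ± 2.4 CPM in A2 ground libraries (SD, n = 3 each). Zscan5b differed by -1.81 for EPL minus ground (adjusted p = 0.00331). Dppa2 differed by -0.39 (adjusted p = 0.0181) and Dppa4 by -0.35 (adjusted p = 0.0412) in the same comparison, and Dppa4 by -0.52 for EPL minus naive (adjusted p = 0.00341). Tbx3 differed by -0.42 for naive minus ground (adjusted p = 0.0276). In the other lists of the programme the same test called 1 repressor higher and 7 lower for EPL minus ground, 1 higher and 5 lower for EPL minus naive, and 1 telomere gene higher and 2 lower for EPL minus ground, where 13.3% of all genes were called.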

How the results depend on the processing

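DESeq2, RLE size factors and total-count scaling gave the same number of the 6 genes called in every comparison that averages the lines or involves EpiSC. The D3 minus A2 count, 2 with all libraries, was 1 under the stricter filter and 1 when only the groups compared were fitted; Tcstv1 was not tested in either. Without the filter the line difference in naive minus ground was called for 1 gene, and the Zscan4 total in D3 minus A2, at 0.38, was called (adjusted p = 4.13e-05). Leaving out 1 library at a time, the count was 5 to 5 for naive minus ground, 6 to 6 for EPL minus ground and each EpiSC comparison, 2 to 4 for EPL minus naive, 1 to 3 for D3 minus A2 and 0 to 0 for the line differences. D3 minus A2 ranged from 0.27 to 0.50 for the Zscan4 total and from 0.52 to 0.80 for the Tcstv total, which lost its call without D3 ground library 1 or D3 naive library 3. Directions turned only among uncalled values: Tcstv3 ranged from -0.02 to 0.28 for EPL minus naive, -0.29 to 0.29 for the same in A2, -0.10 to 0.38 for D3 minus A2 in ground and -0.10 to 0.64 in naive. Tmem92 ranged from -0.12 to 0.61 and Zscan4d from -0.58 to 0.08 for D3 minus A2 in ground, and Zscan4f from -1.13 to 0.18 for EPL minus naive in A2. The causes were not tested.

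The series text calls the samples paired without saying what pairs them. Of 27 pairs of same-numbered libraries of a line, 3 had a correlation over 0.1, with a range of -0.159 to 0.21, so the deviations gave no sign that the numbers pair the libraries, and a pairing by another key was not tested. With the replicate block the numbers of genes called were 5 for naive minus ground, 6 for EPL minus ground, 3 for EPL minus naive and 2 for D3 minus A2, and the Zscan4 total was 2.53 for naive minus ground. Tcstv1, with 0 to 14 counts in each library outside EpiSC, is limited by depth.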
